A study of Mus musculus with 20 samples.

Results

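A set of 8 genes of T cell costimulation and immune checkpoints were followed across 20 cultures of BV-2 cells. These are an immortalized mouse microglial cell line made from brain cultures of young C57BL/6 mice. The genes were chosen by name: *Cd40*, *Cd80*, *Cd86*, *Cd274*, *Pdcd1lg2*, *Icosl*, *Tnfsf9* and *Cd83*, 8 of the 55487 gene identifiers in the deposited count table. All 8 passed the filter on low counts and are among the 12799 genes tested. Young cultures were low-passage cells, and aged cultures came from cells that had been kept in culture over a long period and then frozen. Stocks of both ages were thawed together before use. Each age was left untreated or given bacterial lipopolysaccharide (LPS) at 100 ng/ml for 6 h, which makes 4 groups of 5 cultures of wild-type cells: young untreated, young LPS, aged untreated and aged LPS. Poly(A) RNA was sequenced. The question was how long-term culture changes these genes at rest and after an inflammatory stimulus.

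The replicate numbers 1 to 5 are given in the labels as batches, and every batch has 1 culture from each of the 4 groups, so cultures are named here by group and batch. All cultures are of 1 cell line, and nothing used here says how many separate long-term cultivations the aged cells came from, so the p-values measure the spread between cultures, which may be technical. Age here means time in culture and passage, not the age of an animal. Median totals per library were 14257954 counts in young untreated, 14409826 in young LPS, 14331120 in aged untreated and 14458210 in aged LPS cultures, over a range of 11371508 to 16829292. In RNA from whole cultures, fewer cells that carry a transcript and less of it per cell cannot be told apart.

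A total of 4 libraries stood apart from their groups across all genes tested: those of batch 1 among the young and of batch 3 among the aged cultures, with and without LPS. Genes lying far from the other 4 libraries of the group made up 3.23% of the tested genes in aged LPS culture 3, 3.02% in young LPS culture 1, 2.72% in aged untreated culture 3 and 2.66% in young untreated culture 1, against 0.359% to 1.20% in the other 16. Aged LPS culture 3 held 2.50 times the mean of the other 4 aged LPS cultures for *Cd274*, 2.00 times for *Cd40* and 1.78 times for *Icosl*, but 0.957 to 1.14 times for the other 5. Results for these 3 genes after LPS in aged cultures are therefore given with and without it.

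T cells respond to antigen fully only when a second signal comes from the cell that presents it, and further signals restrain the response. CD80 and CD86 give that second signal through CD28 and are also bound by the inhibitory receptor CTLA-4, while PD-L1 (*Cd274*) and PD-L2 (*Pdcd1lg2*) restrain T cells through PD-1. ICOSL engages ICOS, 4-1BBL (*Tnfsf9*) engages 4-1BB, CD40 is the receptor through which T cells carrying CD40L activate the presenting cell, and CD83 is a surface protein of mature dendritic cells that slows the turnover of CD86 and MHC class II. Microglia carry little of most of these proteins at rest, and inflammatory and interferon signals are known to raise several of them.

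In the GENCODE annotation of GRCm38, *Cd274* lies on the plus strand at chr19:29367455-29388095 and *Pdcd1lg2* on the same strand at chr19:29410919-29471161. They are neighbours: 22823 bases separate them, with 0 annotated genes between. *Cd80* (chr16:38455561-38496335, plus strand) and *Cd86* (chr16:36603869-36666081, minus strand) share a chromosome, and *Cd40* (chr2:165055627-165072948), *Icosl* (chr10:78069302-78083913), *Tnfsf9* (chr17:57105325-57107757) and *Cd83* (chr13:43784775-43803132) lie elsewhere on plus strands. All 8 are protein-coding genes. Exons of *Tnfsf9* overlap the antisense noncoding RNA Gm11110, whose counts were 17.4% to 30.3% of those of *Tnfsf9* in the 4 groups, and exons of *Cd274* overlap an antisense RNA with at most 3 counts in a library. The strand setting of the authors' counting is not stated, so reads there could have been counted for either gene.

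RefSeq's promoter table for GRCm38.p6 held 4 of the 8 genes. The bases upstream of *Cd274* (chr19:29367188-29367437) and *Pdcd1lg2* (chr19:29410669-29410918) are shown because these neighbours, both ligands of PD-1, had very different LPS responses. Each is the plus strand from 5′ to 3′, and capitals mark matches, on either strand, to the kappaB motif or to AANNGAAA, a core of interferon regulatory factor sites.
Cd274: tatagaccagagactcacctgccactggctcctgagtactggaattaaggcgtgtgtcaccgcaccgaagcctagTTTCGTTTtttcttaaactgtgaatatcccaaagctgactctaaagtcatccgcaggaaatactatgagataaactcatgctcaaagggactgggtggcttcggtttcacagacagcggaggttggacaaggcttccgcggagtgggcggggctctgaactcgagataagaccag
Pdcd1lg2: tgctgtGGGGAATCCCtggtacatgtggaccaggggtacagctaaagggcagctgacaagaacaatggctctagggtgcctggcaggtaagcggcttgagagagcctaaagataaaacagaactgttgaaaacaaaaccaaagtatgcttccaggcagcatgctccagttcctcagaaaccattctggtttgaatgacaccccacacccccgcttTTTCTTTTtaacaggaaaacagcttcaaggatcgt
The match upstream of *Cd274* is to AANNGAAA on the minus strand, 175 bases before the start site. *Pdcd1lg2* has a kappaB match 244 bases before its start and an AANNGAAA match on the minus strand 35 bases before it. Of 32851 promoters in the table, 7.25% held a kappaB match and 21.3% an AANNGAAA match in the same window, and the matches did not overlap each other here. Neither window held TTCNNNGAA (7.02% of promoters), the AP-1 letters TGANTCA (6.75%) or TGACGTCA (1.55%). *Icosl* had 1 kappaB match, 111 bases before its start, and *Cd80* 1 AP-1 match, 42 bases before its start. All these distances are to RefSeq's start sites, which for *Cd80*, *Icosl* and *Cd274* differ from the GENCODE gene starts given above. The *Cd80* window (chr16:38458683-38458932) lies inside the GENCODE gene, and the *Icosl* window (chr10:78069118-78069367) runs past the GENCODE start. A match describes the letters and does not show that a factor binds.

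LPS changed which of the 8 transcripts made up most of the set. On the TPM scale, which corrects counts for transcript length, *Cd86* (68.2 ± 5.00 TPM, mean ± SD, n = 5) and *Cd83* (58.9 ± 10.8 TPM) led in young untreated cultures and their ranges overlapped. *Tnfsf9* followed at 24.1 ± 4.51 TPM, then *Cd40* (11.3 ± 1.92 TPM) and *Cd274* (10.6 ± 0.777 TPM), whose ranges also overlapped, then *Icosl* at 8.23 ± 0.686 TPM, and *Cd80* (1.50 ± 0.578 TPM) and *Pdcd1lg2* (1.48 ± 0.246 TPM), whose ranges overlapped. Aged untreated cultures had the same 3 genes on top, *Cd86* at 61.0 ± 7.40 TPM, *Cd83* at 39.5 ± 8.52 TPM and *Tnfsf9* at 27.7 ± 3.75 TPM, with overlapping ranges between the first and the second and between the second and the third. *Cd40* stood at 5.15 ± 0.833 TPM in them, below *Cd274* at 9.31 ± 1.25 TPM and *Icosl* at 6.78 ± 0.404 TPM, with 1 *Cd40* culture (6.19 TPM) just above the lowest of *Icosl* (6.17 TPM).

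After LPS *Cd40* led at both ages, at 489 ± 147 TPM in young and 217 ± 83.0 TPM in aged cultures, above the range of the next gene. *Cd274* was second at 123 ± 34.5 TPM in young and 50.5 ± 25.9 TPM in aged cultures, where it overlapped *Tnfsf9* (46.8 ± 5.06 TPM). Without aged LPS culture 3, *Cd40* stood at 181 ± 28.0 TPM (n = 4) and *Cd274* at 38.9 ± 2.35 TPM, below *Tnfsf9* at 47.2 ± 5.71 TPM but with overlapping ranges. *Cd86* came in place 6 of 8 at both ages, at 25.3 ± 2.15 TPM in young and 18.9 ± 0.834 TPM in aged cultures. Its range overlapped that of *Icosl*, the gene before it, at 29.8 ± 9.49 TPM in young and 20.7 ± 6.53 TPM in aged cultures. Without aged LPS culture 3 *Cd86* stood at 18.9 ± 0.963 TPM, above *Icosl* at 18.0 ± 2.69 TPM but with overlapping ranges. Together *Cd86* and *Cd83* made up 68.9% ± 1.44 of the 8 genes' summed TPM in young untreated and 65.5% ± 3.42 in aged untreated cultures, against 8.16% ± 1.39 and 11.5% ± 2.85 after LPS. *Cd40* and *Cd274* together went from 11.9% ± 1.60 to 81.1% ± 3.14 in young and from 9.55% ± 1.34 to 68.3% ± 6.55 in aged cultures, or to 65.9% ± 4.15 without culture 3. The summed level of the 8 was 184 ± 15.6 TPM in young untreated, 748 ± 193 in young LPS, 153 ± 15.8 in aged untreated and 384 ± 113 in aged LPS cultures, the last at 334 ± 21.5 without culture 3.

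**Figure D1:**
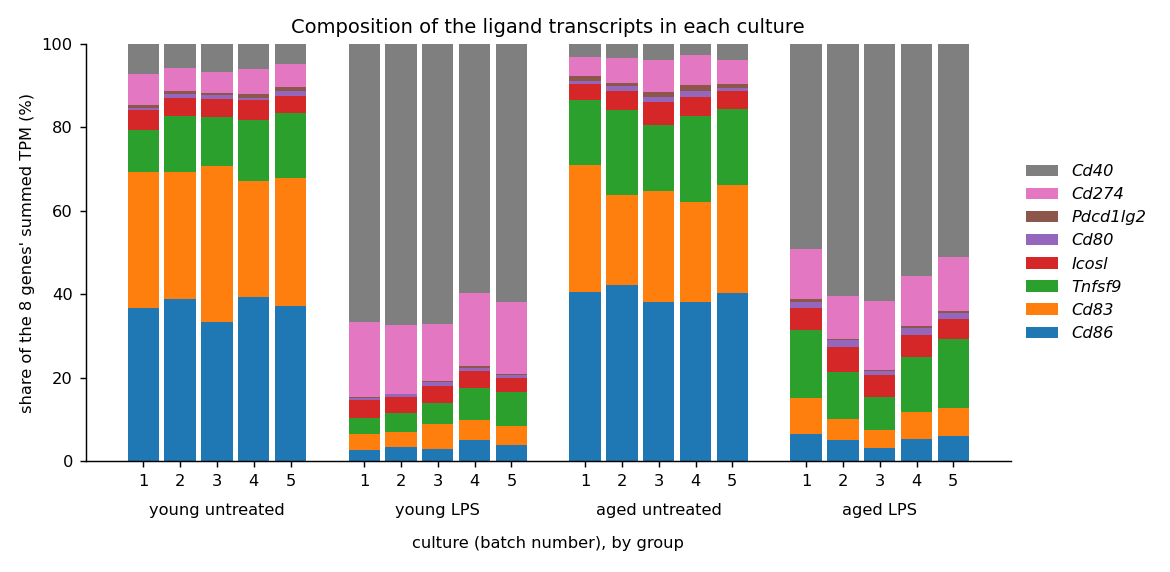
Share of each gene in the 8 genes' summed TPM (vertical axis, %) in each of the 20 cultures, numbered by batch within the 4 groups. *Cd86* and *Cd83* fill 62.1% to 71.1% of every untreated bar, and *Cd40* and *Cd274* fill 61.2% to 84.6% of every LPS bar.

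The 5 comparisons were fitted in one model over the 20 libraries with edgeR's quasi-likelihood F-test, with Benjamini-Hochberg adjustment across the 12799 tested genes, and a gene is called changed where the adjusted p is below 0.05. In young cultures LPS raised 6 of the 8 genes and lowered 2, where 31.2% of all tested genes rose and 33.5% fell. In aged cultures 5 rose and 2 fell, against 27.5% and 26.9% of all genes. Between aged and young LPS cultures 5 were lower and 0 higher, against 15.0% and 14.0% of all genes. Between aged and young untreated cultures 2 were lower and 0 higher, against 7.81% and 3.71%. The LPS response itself was tested as an interaction, the response in aged minus that in young cultures. It was negative for 1 of the 8 genes, which rose less in aged cultures, and positive for 0. Over all genes it was negative for 2.27% and positive for 4.12%, whichever way LPS moved them. The 3 counts of 0 were also 0 at an unadjusted p below 0.05 in edgeR and in DESeq2's Wald test.

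The median log2 fold change of the 8 genes was 1.51 for LPS in young and 1.34 in aged cultures, beside medians of -0.011 and 5.1e-04 over all tested genes. It was -0.57 between aged and young LPS cultures and -0.20 between aged and young untreated cultures, beside 0.0085 and -0.014 over all genes. Counts are scaled here by TMM, edgeR's correction for RNA composition. Scaling by library size alone moved the median of all genes by -0.22 for LPS in young and -0.16 in aged cultures. It made 27.3% in place of 48.2% of all called genes higher for LPS in young, 28.4% in place of 50.6% for LPS in aged, 70.1% in place of 48.3% between aged and young LPS cultures, 42.2% in place of 32.2% between aged and young untreated cultures, and 81.3% in place of 64.4% for the interaction. Comparisons share groups, so their values are set side by side and were not correlated.

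**Figure D2:**
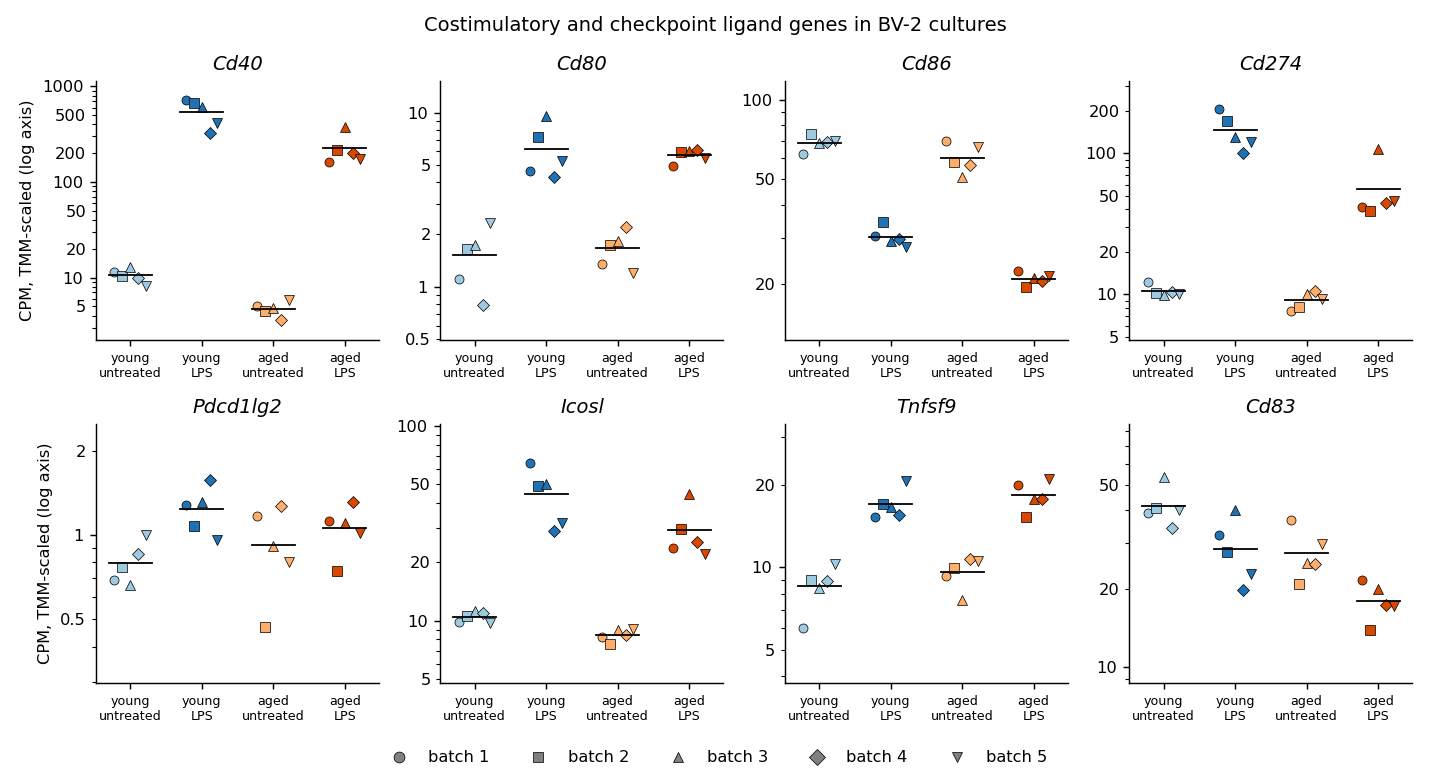
Normalised read counts (CPM, TMM-scaled, vertical log axis) of the 8 genes in the 4 groups; each point is 1 culture, its shape the batch, and each line the group mean (n = 5). *Cd40*, *Cd274*, *Icosl*, *Cd80* and *Tnfsf9* are higher in every LPS culture than in every untreated one of the same age, *Cd86* is lower, and aged LPS culture 3 sits above its group for *Cd40*, *Cd274* and *Icosl*.

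*Cd40* had the largest LPS response of the 8. Young untreated cultures 1 to 5 held 11.5, 10.4, 12.8, 9.82 and 8.26 CPM, and young LPS cultures 716, 662, 604, 322 and 415 CPM. Aged untreated cultures held 5.04, 4.44, 4.85, 3.57 and 5.79 CPM, and aged LPS cultures 160.3, 218, 374, 199 and 172 CPM. Every aged untreated culture was below every young one, and after LPS only aged culture 3 reached into the young range, above young culture 4. LPS raised *Cd40* 51.3-fold in young (log2 fold change 5.68 ± 0.26 SE, edgeR adjusted p = 1.19e-14) and 47.6-fold in aged cultures (5.57 ± 0.27, edgeR adjusted p = 8.37e-14). Without aged LPS culture 3 the rise in aged cultures was 5.31 ± 0.22 (edgeR adjusted p = 5.03e-15).

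The level of *Cd40* was lower in aged than in young cultures with and without LPS. It was 2.24-fold lower untreated (log2 fold change -1.16 ± 0.30, edgeR adjusted p = 0.0147) and 2.42-fold lower after LPS (-1.27 ± 0.20, edgeR adjusted p = 5.78e-05), in 5 of 5 batches each time. Leaving out batch 2 raised the untreated adjusted p to 0.0783. Without aged LPS culture 3 the difference after LPS was -1.54 ± 0.17 (edgeR adjusted p = 6.22e-07). The interaction was -0.11 ± 0.37 (edgeR adjusted p = 0.928), with a 95% interval of -0.88 to 0.66, or -0.37 ± 0.30 (edgeR adjusted p = 0.542) without that culture, and the sign of the within-batch difference was negative in 3 batches and positive in 2.

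The ligands of CD28 moved in opposite directions under LPS. *Cd80* was rare, at 12 to 40 counts in each untreated library. Young untreated cultures held 1.10, 1.66, 1.75, 0.791 and 2.33 CPM and young LPS cultures 4.64, 7.30, 9.59, 4.25 and 5.31 CPM. Aged untreated cultures held 1.36, 1.75, 1.83, 2.20 and 1.20 CPM and aged LPS cultures 4.92, 5.94, 6.00, 6.12 and 5.50 CPM. LPS and untreated values did not overlap at either age, while the aged values lay within the young range with and without LPS. LPS raised *Cd80* 4.07-fold in young (log2 fold change 2.02 ± 0.24, edgeR adjusted p = 1.58e-07) and 3.37-fold in aged cultures (1.75 ± 0.24, edgeR adjusted p = 1.64e-06). No age difference passed the test: it was 0.13 untreated, with a 95% interval of -0.44 to 0.71, and -0.14 after LPS, with an interval of -0.57 to 0.30 (log2).

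*Cd86* was the most abundant of the 8 per length at rest and fell under LPS in every batch. Young cultures held 62.0, 74.2, 68.2, 68.9 and 69.5 CPM untreated and 30.4, 34.5, 29.1, 29.5 and 27.6 CPM after LPS. Aged cultures held 69.5, 57.9, 51.1, 56.7 and 66.3 CPM untreated and 22.3, 19.5, 21.1, 20.5 and 21.5 CPM after LPS. The spread between cultures was small, with a range in aged LPS cultures that lay wholly below that of young LPS cultures, while the untreated ranges overlapped. LPS lowered *Cd86* 2.27-fold in young (log2 fold change -1.18 ± 0.077, edgeR adjusted p = 5.67e-12) and 2.87-fold in aged cultures (-1.52 ± 0.079, edgeR adjusted p = 2.24e-13). Aged LPS cultures held 1.44-fold less than young ones (-0.52 ± 0.082, edgeR adjusted p = 4.42e-05).

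Between aged and young untreated cultures the *Cd86* difference was -0.19 ± 0.073 (edgeR adjusted p = 0.105, unadjusted p = 0.0184). Its response to LPS was stronger in aged cultures in 5 of 5 batches by -0.34 ± 0.11, which missed the threshold in edgeR (adjusted p = 0.0724) and passed it in DESeq2 (adjusted p = 0.0383).

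*Cd274* was the gene with a called difference in LPS response between the ages. Young untreated cultures held 12.1, 10.2, 9.96, 10.4 and 10.1 CPM and young LPS cultures 206, 171, 129.9, 100.3 and 121 CPM. Aged untreated cultures held 7.57, 8.14, 9.99, 10.5 and 9.32 CPM and aged LPS cultures 41.5, 39.2, 107, 44.8 and 45.9 CPM. Untreated values of both ages overlapped. After LPS 4 aged cultures held 39.2 to 45.9 CPM, and the fifth, culture 3, lay just above the lowest young one. LPS raised *Cd274* 13.8-fold in young (log2 fold change 3.78 ± 0.25, edgeR adjusted p = 8.84e-12) and 6.11-fold in aged cultures (2.61 ± 0.25, edgeR adjusted p = 9.35e-09), the latter 2.23 ± 0.16 (edgeR adjusted p = 1.16e-10) without culture 3.

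Aged LPS cultures held 2.60-fold less *Cd274* than young ones (log2 fold change -1.38 ± 0.22, edgeR adjusted p = 5.13e-05), and without culture 3 the difference was -1.76 ± 0.15 (edgeR adjusted p = 1.31e-08). The untreated difference was -0.21 ± 0.28 (edgeR adjusted p = 0.711), with a 95% interval of -0.78 to 0.37. The interaction was -1.17 ± 0.35 (edgeR adjusted p = 0.0492) and negative in 5 of 5 batches, from -1.80 in batch 2 to -0.28 in batch 3. This call was close to the threshold: the adjusted p was 0.129, 0.263, 0.125 and 0.168 without batch 1, 2, 4 or 5, and 0.0558 without young untreated culture 1. Leaving out aged LPS culture 3 alone made it -1.56 ± 0.23 (edgeR adjusted p = 1.98e-04), and leaving out all 4 libraries that stood apart made it -1.42 ± 0.19 (edgeR adjusted p = 1.85e-04).

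*Pdcd1lg2*, next to *Cd274* on chromosome 19, was near the limit of detection, at 7 to 23 counts in each library. Young cultures held 0.690, 0.767, 0.664, 0.857 and 0.999 CPM untreated and 1.28, 1.08, 1.31, 1.57 and 0.958 CPM after LPS. Aged cultures held 1.16, 0.471, 0.913, 1.26 and 0.799 CPM untreated and 1.12, 0.742, 1.10, 1.32 and 1.01 CPM after LPS. All 4 groups overlapped. The LPS difference was 0.64 ± 0.24 on the log2 scale in young cultures (edgeR adjusted p = 0.0218), 1.56-fold, and this call was lost in DESeq2 (adjusted p = 0.0683), with library size alone (0.124), without a filter (0.0914), without the 4 libraries that stood apart (0.0807) and without batch 1 (0.0808), 3 (0.114) or 4 (0.0712). In aged cultures the difference was 0.19 ± 0.23 (edgeR adjusted p = 0.532), with an interval of -0.29 to 0.67, and the interaction of -0.45 had an interval of -1.14 to 0.23.

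*Icosl*, the ligand of ICOS, rose with LPS in each batch. Young cultures held 9.80, 10.5, 11.2, 10.9 and 9.72 CPM untreated and 64.3, 49.4, 50.3, 28.9 and 31.6 CPM after LPS. Aged cultures held 8.21, 7.60, 8.96, 8.46 and 9.06 CPM untreated and 23.7, 29.7, 44.8, 25.4 and 22.0 CPM after LPS. Every aged untreated culture was below every young one by a small margin, and after LPS aged cultures 2 and 3 reached the young range. The rise was 4.28-fold in young (log2 fold change 2.10 ± 0.20, edgeR adjusted p = 3.26e-09) and 3.44-fold in aged cultures (1.78 ± 0.20, edgeR adjusted p = 1.14e-07), the latter 1.57 ± 0.18 (edgeR adjusted p = 1.17e-07) without aged LPS culture 3.

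Aged LPS cultures held 1.54-fold less *Icosl* than young ones (log2 fold change -0.62 ± 0.18, edgeR adjusted p = 0.0135), in 5 of 5 batches. This rested on few cultures: the adjusted p was 0.140 without batch 1, 0.0857 without batch 2 and 0.0709 when only the LPS groups were fitted, while without aged LPS culture 3 the difference was -0.83 ± 0.16 (edgeR adjusted p = 4.59e-04). Untreated, the difference of -0.30 ± 0.21 did not pass (edgeR adjusted p = 0.408) and passed when only the untreated groups were fitted (0.0375). The interaction was -0.32 ± 0.28, with a 95% interval of -0.90 to 0.27, or -0.53 ± 0.24 (edgeR adjusted p = 0.207) without aged LPS culture 3.

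*Tnfsf9*, the gene of 4-1BBL, rose under LPS in every batch of both ages, and no age difference passed the test. Young cultures held 6.00, 9.01, 8.39, 8.90 and 10.3 CPM untreated and 15.3, 17.1, 16.7, 15.6 and 20.6 CPM after LPS. Aged cultures held 9.31, 9.96, 7.59, 10.8 and 10.6 CPM untreated and 20.0, 15.3, 17.7, 17.8 and 21.0 CPM after LPS. LPS and untreated values did not overlap, and aged and young ones did. LPS raised it 2.00-fold in young (log2 fold change 1.00 ± 0.13, edgeR adjusted p = 3.48e-07) and 1.91-fold in aged cultures (0.93 ± 0.12, edgeR adjusted p = 1.16e-06). The age difference was 0.18 untreated, with a 95% interval of -0.094 to 0.44, and 0.11 after LPS, with an interval of -0.14 to 0.36, and the interaction of -0.069 had an interval of -0.44 to 0.30.

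*Cd83* was lower under LPS and lower with age. Young cultures held 39.1, 40.7, 53.7, 34.2 and 40.1 CPM untreated and 32.0, 27.5, 40.1, 19.8 and 22.8 CPM after LPS. Aged cultures held 36.7, 20.9, 25.1, 24.9 and 29.6 CPM untreated and 21.6, 13.9, 19.9, 17.3 and 17.1 CPM after LPS. Groups overlapped in each comparison, but within every batch the LPS culture was below its untreated partner and the aged below the young. LPS lowered it 1.46-fold in young (log2 fold change -0.55 ± 0.17, edgeR adjusted p = 0.00669) and 1.52-fold in aged cultures (-0.61 ± 0.17, edgeR adjusted p = 0.00552). Aged cultures held 1.52-fold less untreated (-0.60 ± 0.17, edgeR adjusted p = 0.0209) and 1.58-fold less after LPS (-0.66 ± 0.18, edgeR adjusted p = 0.00709). The untreated call was lost without batch 2, 3 or 5, with an adjusted p of up to 0.129, and the interaction was -0.058 with a 95% interval of -0.56 to 0.44.

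**Figure D3:**
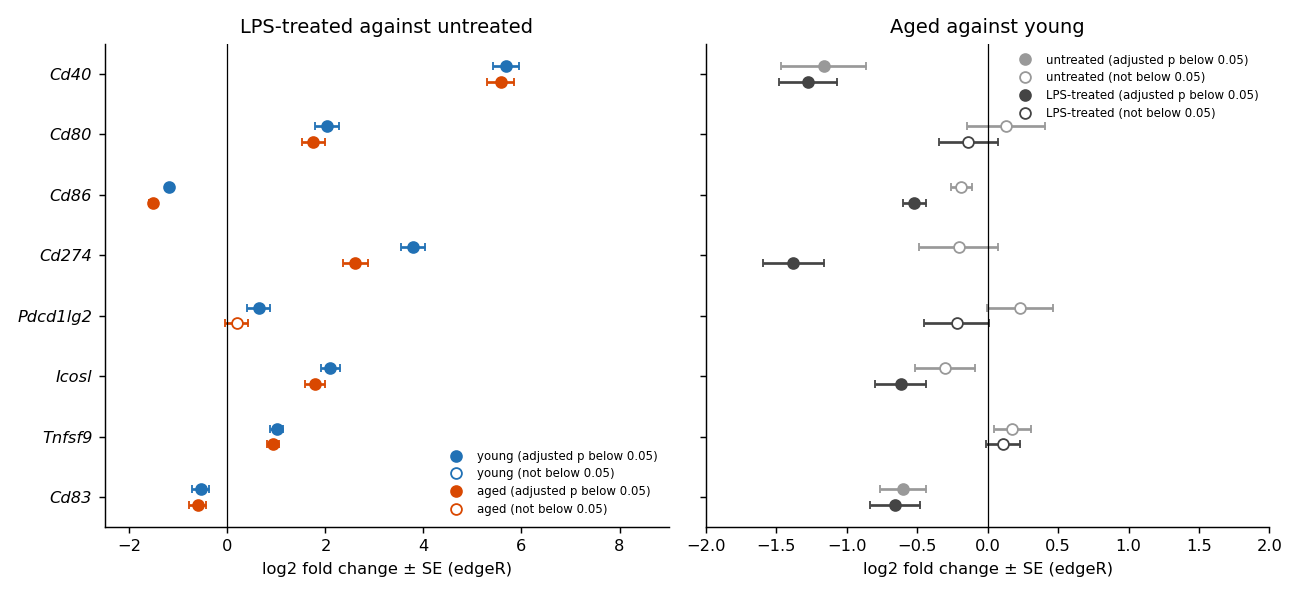
Log2 fold changes (horizontal axis) of the 8 genes with bars of 1 SE (edgeR, n = 5 per group), for LPS against untreated cultures of each age and for aged against young cultures with and without LPS; filled points have an adjusted p below 0.05. *Cd40* lies furthest right for LPS, at 5.68 and 5.57, and *Cd274* furthest left for age after LPS, at -1.38.

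**Figure D4:**
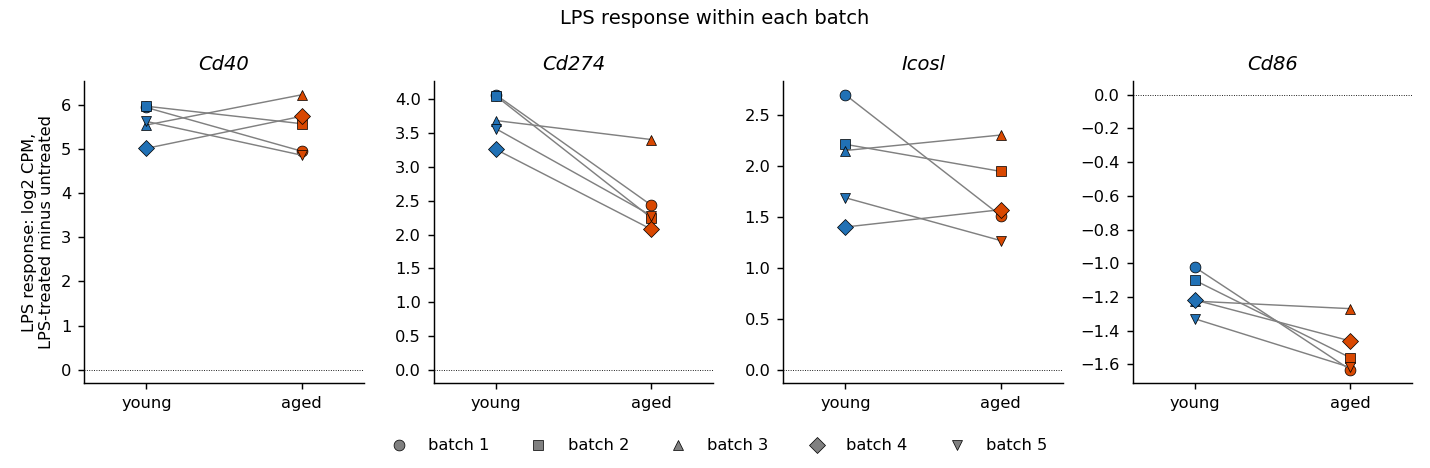
LPS response within each batch (vertical axis, log2 CPM of the LPS culture minus that of the untreated one) of 4 genes, with a line joining the young and aged response of a batch. For *Cd274* all 5 lines fall, from 3.26 to 4.07 in young to 2.08 to 3.41 in aged cultures, whereas for *Cd40* 3 fall and 2 rise.

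*Cd40*, *Cd274* and *Icosl* also varied together between cultures of the same group. Deviations of log2 CPM from the group mean had a Pearson r of 0.891 for *Cd40* and *Icosl*, 0.804 for *Cd274* and *Icosl* and 0.737 for *Cd40* and *Cd274* over the 20 libraries, and of 0.970, 0.847 and 0.887 over the 10 LPS libraries. The libraries share batches. Without aged LPS culture 3 these were 0.836, 0.691 and 0.552 over the other 19, and 0.956, 0.783 and 0.808 over the other 9 LPS libraries. *Cd83* followed less closely, at 0.504 with *Cd40*, 0.475 with *Icosl* and 0.248 with *Cd274* over the 20 libraries. Without aged LPS culture 3 its values were 0.521, 0.482 and 0.214, the first close to the 0.552 of *Cd40* and *Cd274*. *Tnfsf9* did not follow *Cd40* or *Cd274*, with an r of -0.341 with *Cd40* and -0.161 with *Cd274* over the 20 libraries. *Cd80* deviated with *Cd40* at 0.0786 over the 20 and 0.453 over the 10 LPS libraries, and *Cd86* at 0.188 and 0.220.

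The genes with the most similar pattern were ranked by Pearson r of log2 CPM over the 20 libraries among 10876 genes, a description that mostly reflects the 4 groups. Closest to *Cd40* were *Helz2* (0.996), *Rassf4* (0.996) and *Rapgef2* (0.996). Closest to *Cd274* were *Znfx1* (0.997), *Cmtr1* (0.995) and the annotated gene *Gm28043* (0.993). *Icosl* was followed by *Socs3* (0.990), *N4bp1* (0.989) and *Icam1* (0.986), and *Cd86* by *Frmd4b* (0.986), *Mertk* (0.981) and *Maml2* (0.979). *Tnfsf9* ran most like *Tars* (0.963), a threonyl-tRNA synthetase, *Ddx18* (0.959) and the translation initiation factor subunit *Eif2s2* (0.958). *Cd80* was closest to *Zdhhc13* (0.960), *Tmem199* (0.960) and *Ptgs2os2* (0.953), *Cd83* to *Abi3* (0.898), *Grk2* (0.895) and *Pld4* (0.895), and *Pdcd1lg2* only loosely to *Mid1-ps1* (0.837), *Snhg17* (0.806) and *Zfp143* (0.771).

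Few other ligands of the same families passed the filter on low counts. Of 7 further TNF superfamily ligands with costimulatory roles 0 did, the highest group means being 0.689 CPM for *Tnfsf15* in young LPS and 0.502 CPM for *Tnfsf14* in aged untreated cultures, and of 7 further B7-related genes only *Cd276* and *Vsir* did. *Cd276*, the gene of B7-H3, rose with LPS from 15.9 ± 2.00 to 52.8 ± 9.35 CPM in young (log2 fold change 1.73 ± 0.14, edgeR adjusted p = 2.02e-10) and from 12.9 ± 1.90 to 37.5 ± 7.48 CPM in aged cultures (mean ± SD). *Vsir*, the gene of the inhibitory ligand VISTA, went the other way. It fell from 79.4 ± 10.9 to 15.5 ± 4.23 CPM in young (-2.34 ± 0.16, edgeR adjusted p = 8.39e-12) and from 50.5 ± 7.44 to 17.1 ± 3.00 CPM in aged cultures (-1.56 ± 0.15, edgeR adjusted p = 1.17e-08), a smaller fall in aged cultures by 0.78 ± 0.22 (edgeR adjusted p = 0.0326). That difference in response was called without batch 3 (adjusted p = 0.0213) and not without batch 1, 2, 4 or 5 (up to 0.182). Untreated, *Vsir* was lower in aged than in young cultures (log2 fold change -0.65 ± 0.14, edgeR adjusted p = 0.00403), with an adjusted p of up to 0.0664 with a batch left out. After LPS the age difference was 0.13 ± 0.17 (edgeR adjusted p = 0.617).

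Of 12 other inhibitory and adhesive ligands, 7 were tested. All 7 rose with LPS in young cultures and 5 in aged ones, and all 7 were lower in aged than in young LPS cultures, with a median log2 fold change of -0.61. Of all tested genes, 31.2% rose with LPS in young and 27.5% in aged cultures. Lower in aged cultures were 15.0% of all genes after LPS and 7.81% untreated. *Lgals9*, the gene of galectin-9, rose 11.4-fold in young and 7.76-fold in aged cultures and was 2.09-fold lower in aged LPS cultures (edgeR adjusted p = 6.58e-05). *Tnfrsf14*, the gene of HVEM, was rare, and was 4.46-fold lower in aged LPS cultures, at 1.03 ± 0.699 against 4.68 ± 1.31 CPM (edgeR adjusted p = 1.30e-05). *Cd47*, which signals to phagocytes not to engulf a cell, was 1.58-fold lower there (edgeR adjusted p = 3.70e-06). Untreated, 3 of the 7 were lower in aged cultures: *Tnfrsf14*, *Cd47* and *Cd48*, of which *Cd47* lost the call with any of 4 of the batches left out and *Cd48* with 1 of them (adjusted p of up to 0.0687 and 0.115). The LPS response differed between the ages for 0 of the 7 in edgeR (2 at an unadjusted p below 0.05) and 0 in DESeq2, and for 1, *Cd47*, with the batch as a replicate block in edgeR.

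Of 14 genes for the receptors of these ligands, 6 were tested. *Cd28* was detected well, at 209 ± 13.4 CPM in young and 178 ± 14.4 CPM in aged untreated cultures, and LPS lowered it 2.92-fold and 2.32-fold (edgeR adjusted p = 1.72e-09 and 1.24e-07). *Icos* was rare and fell too, from 2.01 ± 0.544 to 0.387 ± 0.137 CPM in young cultures. *Tnfrsf9*, the gene of the receptor of 4-1BBL, rose 10.0-fold in young cultures (edgeR adjusted p = 1.98e-05) and 7.04-fold in aged ones (edgeR adjusted p = 9.12e-05). Its aged untreated level was 1.74 ± 2.71 CPM, an SD above the mean, and the log2 rise in aged cultures ranged from 2.57 to 4.31 with single batches left out, the highest without batch 3. Of the T cell markers *Cd3e*, *Cd3g*, *Cd8a* and *Trbc2* were at 0 in all 20 libraries.

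All 17 genes of the CD40 signalling list were tested. In young cultures 14 rose and 3 fell with LPS, beside 31.2% and 33.5% of all tested genes. In aged cultures 13 rose and 1 fell, beside 27.5% and 26.9%. Between aged and young LPS cultures 11 were lower and 1 higher, beside 15.0% and 14.0%. With the replicate block in edgeR, 2 fell with LPS in aged cultures, and 11 were lower and 2 higher in aged LPS cultures. DESeq2's Wald test gave 10 lower and 0 higher between the LPS groups. *Tnfaip3*, the gene of the NF-kappaB inhibitor A20, rose 16.5-fold in young and 15.5-fold in aged cultures and was 1.64-fold lower in aged LPS cultures (edgeR adjusted p = 3.86e-06). *Traf1*, an adaptor of CD40 and 4-1BB, was at or below 3 counts in every aged untreated library. Against that floor its aged LPS level of 90.3 ± 13.2 CPM was at least 485-fold higher. In young cultures it went from 2.00 ± 2.11 CPM, an SD above the mean, to 158 ± 37.2 CPM, and aged LPS cultures held 1.75-fold less than young ones in edgeR (adjusted p = 0.00405), a call lost in DESeq2.

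The interferon and JAK-STAT list was tested in full, 15 genes, of which 13 rose with LPS in young and 11 in aged cultures, with 2 lower at each age. In aged LPS cultures 13 of 15 were lower than in young ones, with a median log2 fold change of -0.41, and 6 were lower untreated. Over all tested genes, 31.2% rose with LPS in young and 27.5% in aged cultures, and 15.0% were lower in aged LPS and 7.81% in aged untreated cultures. *Stat2* reached 134 ± 24.9 CPM in young and 52.7 ± 24.3 CPM in aged LPS cultures, 2.52-fold lower (edgeR adjusted p = 1.68e-05), and *Irf1* 88.3 ± 21.9 and 40.9 ± 10.2 CPM, 2.15-fold lower (edgeR adjusted p = 2.00e-05). *Irf7* was 2.21-fold lower (edgeR adjusted p = 2.30e-04). The interaction was negative for 4 of the 15, each raised by LPS, so that their response was smaller in aged cultures. It was negative for 5 with the batch as a replicate block in edgeR. Of all genes 2.27% had a negative and 4.12% a positive interaction, whichever way LPS moved them. Without the block *Stat2*, *Jak2* and *Irf1* differed by the largest amounts, at -1.23 ± 0.30, -0.69 ± 0.17 and -0.85 ± 0.24 (edgeR adjusted p = 0.0155, 0.0132 and 0.0349). Each of these 3 calls was lost without batch 1, 2 or 5, at adjusted p-values of up to 0.127, 0.0977 and 0.210, and held without batch 3 or 4.

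Of 7 regulators of the turnover of these proteins 6 were tested. *Cmtm6*, whose protein keeps PD-L1 at the cell surface, was lower in aged cultures, 1.24-fold untreated (edgeR adjusted p = 0.00238) and 1.54-fold after LPS (edgeR adjusted p = 4.09e-07), while its paralog *Cmtm4* was 1.36-fold higher after LPS (edgeR adjusted p = 3.07e-05). Of 11 MHC class II genes 6 were tested, and the chain genes *H2-Aa*, *H2-Ab1* and *H2-Eb1* and the transactivator gene *Ciita* did not pass the filter. *Cd74*, the invariant chain, rose 4.69-fold in young and 4.79-fold in aged cultures, and was 1.55-fold lower in aged LPS cultures (edgeR adjusted p = 0.00293). Untreated, it was also lower in aged cultures (log2 fold change -0.66 ± 0.16, edgeR adjusted p = 0.0102). The untreated adjusted p was up to 0.0727 with a batch left out. *H2-DMa*, which edits the peptides loaded on class II, was rare. It rose 2.31-fold in young cultures, from 1.07 to 2.49 CPM, and 2.20-fold in aged ones, from 0.843 to 1.85 CPM. The lysosomal protease gene *Lgmn* fell 1.69-fold and 1.53-fold in young and aged cultures. With LPS 2 of the 6 rose and 2 fell in young cultures, beside 31.2% and 33.5% of all tested genes. In aged cultures 2 rose and 3 fell, beside 27.5% and 26.9%.

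The labelled cell type was checked against markers. Of 13 microglia and macrophage genes 12 were tested and *Sall1* was at 0 in all libraries. *Cd68* was the most abundant at a mean of 1007 CPM. Genes that set microglia apart from other macrophages were low: *Cx3cr1* had 0 to 28 counts and *P2ry12* 0 to 31 counts in a library, and *Tmem119* went from 17.8 CPM in young untreated to 2.31 in young LPS and from 18.0 in aged untreated to 3.48 in aged LPS cultures. The summed level of the list was 3517 ± 527 CPM in young untreated, 3754 ± 529 in young LPS, 2849 ± 501 in aged untreated and 3024 ± 522 in aged LPS cultures, with overlapping ranges of 2934 to 4315, 3140 to 4553, 2448 to 3723 and 2619 to 3939 CPM. The sums were not tested. Of 7 dendritic cell genes 2 were tested. *Itgax*, which microglia also express, led that list at 91.8 CPM in young untreated, 86.0 in young LPS, 52.8 in aged untreated and 51.1 in aged LPS cultures, and *Zbtb46*, a transcription factor of conventional dendritic cells, was the other gene tested, at 10 to 64 counts in a library and means of 3.12, 1.70, 3.42 and 1.56 CPM in the same order. *Xcr1*, *Clec9a* and *Cd209a* were at or below 3 counts in every library. In the T cell list only *Lck* was tested, at a mean of 7.53 CPM, and the summed level of that list was 4.41 ± 0.687 CPM in young untreated, 10.9 ± 1.76 in young LPS, 5.29 ± 0.994 in aged untreated and 10.1 ± 2.82 in aged LPS cultures. B cell, astrocyte, neuron, oligodendrocyte and fibroblast or endothelial lists summed to at most 1.33 CPM in any group. The part of these marker differences in the results above was not tested.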

How the data were processed

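RNA-seq libraries of 20 BV-2 cultures, 5 in each of 4 groups, were made by the authors from poly(A) RNA with a stranded kit and sequenced as paired ends. Reads were aligned to GRCm38 with STAR 2.6.1d and counted per gene with featureCounts 1.5.1, per the study's methods and the submitters' processing notes, which also name FastQC 0.11.8 and DESeq2. The authors deposited raw counts per Ensembl gene, without normalization. How strand, multiply mapped reads and overlapping features were handled is not given in the sources used here. All 20 sample columns were used, and matched to the labels by name. Gene symbols, positions and exonic lengths came from the GENCODE vM21 annotation of GRCm38, in which 55141 of 55487 identifiers were found.

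Groups were compared by the quasi-likelihood F-test of edgeR (version 4.0.16, run under R 4.3.3) after TMM scaling and a filterByExpr step that retained 12799 genes. The model held the group only, for all 20 libraries. Benjamini-Hochberg adjustment covered every tested gene, with calls below 0.05. The SE is the log2 fold change divided by the root of F, and the 95% interval uses it with the test's degrees of freedom. CPM values are TMM-scaled, a prior count of 2 entered log2 CPM, and TPM was computed from the counts and exonic lengths. A count of 3 in a library, 0.178 to 0.264 CPM before TMM scaling, was taken as the floor. Floors cover counting error only. The tests were run on simulated data as a check.

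The 8 genes and the gene and marker lists were chosen with earlier results of these data known. Named beside the 8 were, in each list and comparison, the 3 called genes with the largest log2 fold change, the 3 genes most like each of the 8 among those with a mean log2 CPM of at least 1, and the most abundant gene of each marker list. Other list genes are given by count, and the markers *Cx3cr1*, *P2ry12*, *Tmem119* and *Zbtb46* and those named as not passing the filter or at 0 were chosen after their values were seen. Promoters came from RefSeq's table for GRCm38.p6.

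Batch numbers pair the cultures by the labels. As a check, deviations from the group means correlated at a mean of 0.146 across genes in same-numbered cultures of all pairs of groups, 0.276 between young untreated and LPS and 0.260 between aged untreated and LPS cultures, and at -0.0358 in cultures of differing number. Alternatives were the batch as a replicate block in edgeR and DESeq2, DESeq2's Wald test (DESeq2 1.42.0), the size factors of DESeq2 or raw totals for scaling, no filter, at least 10 counts in every library, only the groups compared, a threshold of 0.01 and each batch left out. Leaving out aged LPS culture 3, young untreated culture 1 or the 4 libraries that stood apart was added after seeing the data. Summaries used pandas 2.3.3 and numpy 2.4.6, and plots matplotlib 3.10.9, under Python 3.11.15.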

Additional observations from a re-analysis of the deposited data

Results flagged for a closer look

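Among the 32 sets of 5 cultures (8 genes in 4 groups), 2 had a culture far from the rest by Dixon's test, where chance alone gives about 1 in 20. *Cd274* was high in young untreated culture 1, at 12.1 CPM, and in aged LPS culture 3, at 107 CPM. Both libraries also stood apart from their groups across all genes.

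The LPS response differed between aged and young cultures by edgeR's interaction test for 1 of the 8 genes and for 8 named genes of the pathway lists. Of the 4 called genes of the interferon and JAK-STAT list, only the 3 with the largest differences are named. The differences, aged minus young on the log2 scale, were -1.17 for *Cd274*, 0.78 for *Vsir*, -0.59 for *Birc3*, an inhibitor of apoptosis that binds TRAF proteins, 0.44 for *Cmtm4*, -0.31 for *Cmtm6*, -1.23 for *Stat2*, -0.85 for *Irf1* and -0.69 for *Jak2*. For *Traf1* the fitted value was 4.00, but its aged untreated libraries are at the floor, so that this value depends on the prior count and is no bound. With single batches left out each of the 9 calls was lost at least once, at an adjusted p of up to 0.263 for *Cd274*, 0.182 for *Vsir*, 0.155 for *Birc3*, 0.0671 for *Cmtm4*, 0.203 for *Cmtm6*, 0.127 for *Stat2*, 0.210 for *Irf1*, 0.0977 for *Jak2* and 0.0814 for *Traf1*. The call for *Birc3* was also lost without the 4 libraries that stood apart (-0.55, edgeR adjusted p = 0.0733), and that for *Cmtm6* with library size alone (-0.25) and without the filter (-0.30).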

How the results depend on the processing

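Under the other settings 477 of 505 values for the 8 genes kept their direction and their side of the threshold, 18 lost and 4 gained a call, and 6 changed sign. With libraries left out singly or as a set of 4, chosen after seeing the data, 117 kept both, 2 lost a call and 1 changed sign. None of the changes of sign concerned a called value. With single batches or libraries left out, the *Cd40* interaction ranged from -0.41 to 0.11 (0.11 without batch 1 and 0.045 without batch 5), the *Cd80* age difference from -0.16 (without batch 4) to 0.42 untreated and from -0.28 to 0.059 (without batch 3) after LPS, the *Cd83* interaction from -0.12 to 0.059 (without batch 1) and the *Tnfsf9* interaction from -0.14 to 0.032 (without young untreated culture 1). The *Cd83* interaction was 0.0026 with library size alone. The cause was not tested.

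With the replicate block 2204 genes were called between aged and young untreated cultures, 8671 and 7486 for LPS in young and aged cultures, 4280 between aged and young LPS cultures and 1156 for the interaction, and in edgeR the block changed no call of the 8 genes. DESeq2 with the block called 2254, and 1362 for the interaction. At a threshold of 0.01, 622 genes were called between aged and young untreated cultures, 2333 between aged and young LPS cultures and 328 for the interaction, and 0 of the 8 genes remained called in the first and the last of these (edgeR; 3301 and 2481 genes had an unadjusted p below 0.05 there). For the interaction 2 of the 8 were called by DESeq2 and 2 by DESeq2 with the block, and 0 without young untreated culture 1.

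Leaving out each batch, or aged LPS culture 3 or young untreated culture 1 alone, gave 0 to 3 of the 8 genes and 548 to 1646 of all genes between aged and young untreated cultures, 7 to 8 and 7501 to 8353 for LPS in young, 7 to 7 and 6174 to 7032 for LPS in aged, 4 to 5 and 2156 to 3937 between aged and young LPS cultures, and 0 to 1 and 189 to 1069 for the interaction. *Pdcd1lg2* and *Cd80* had the lowest mean counts of the 8 genes in every group, and the effect of depth was not tested. *Pdcd1lg2* was not tested when 10 counts in every library were required.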
